A study of Mus musculus with 16 samples.

Results

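The effect of adding Runx1 loss to an ovary that already lacked Foxl2 was examined by comparing 4 newborn Runx1/Foxl2 double knockout (DKO) ovaries with 4 newborn Foxl2 KO ovaries. These 8 arrays were picked by genotype label alone from the 16 arrays of the series, and all 18193 genes measured were tested. Every array held RNA from a single XX gonad taken at birth (P0). Foxl2 KO ovaries were Runx1+/f; Foxl2-/- and did not inherit the Sf1-Cre transgene. DKO ovaries were Runx1-/f; Foxl2-/- and carried a copy of Sf1-Cre, which removes floxed Runx1 from SF1-expressing somatic cells, those of the gonad and adrenal among them. Both groups therefore shared 2 null Foxl2 alleles, which are null in every cell of the animal, and a floxed Runx1 allele that was left intact in Foxl2 KO. The other 8 arrays were control (Runx1+/f; Foxl2+/+, no transgene) and Runx1 KO (Runx1-/f; Foxl2+/+, with transgene) ovaries, and they entered only the estimate of the spread, the choice of probe set and the comparisons named below. All animals came from crosses on mixed backgrounds. Since only DKO ovaries carried the transgene, loss of Runx1 and presence of Sf1-Cre cannot be told apart in this comparison.

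The transcription factors RUNX1 and FOXL2 are both made in pre-granulosa cells, which enclose and support oocytes in the fetal and newborn ovary. RUNX proteins bind DNA together with the cofactor CBFB, and FOXL2 is a forkhead factor needed to keep granulosa cells from taking on features of Sertoli cells, the supporting cells of the testis. Nr5a1 encodes steroidogenic factor 1 (SF1), a nuclear receptor required for gonad and adrenal development, and its regulatory sequences drive the Sf1-Cre transgene.

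The deposited intensities were comparable in scale, with array medians from 134 to 177. Each array correlated with the others of its genotype at a median of 0.963 to 0.981 across the genes tested, with 1 probe set per gene. Levels are given as intensity or as log2(intensity + 16), and differences and folds are on the log2(intensity + 16) scale, which understates the change of dim genes. As a guide to background, 5 Y-linked genes, which XX ovaries lack, had group means between 4.52 and 6.38 on this scale, while a sixth, Sry, read 8.34 to 8.49 in both groups and was left out of that range.

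The genes targeted in the mice were read first. Runx1 had intensities of 2455, 2356, 3054 and 2555 in the Foxl2 KO ovaries and of 2370, 2111, 2227 and 2205 in the DKO ovaries. The highest DKO ovary lay just above the lowest Foxl2 KO ovary, and the log2 difference was -0.22 ± 0.19 (SE; limma, adjusted p = 1.00). Of the 6 Runx1 probe sets, 5 were lower and 1 higher in DKO, and none passed the test. The level of the probe set that stood for Runx1 was 11.3 in Foxl2 KO and 11.1 in DKO, and it was 11.1 in control and 10.5 in Runx1 KO, where the difference from control was -0.64 ± 0.19 (limma, adjusted p = 0.398). The DKO mean was therefore not below that of control. Foxl2 had intensities of 484, 714, 863 and 890 in Foxl2 KO and of 570, 736, 839 and 661 in DKO, a difference of -0.05 ± 0.20, and the DKO values lay within the range of the Foxl2 KO values. Its mean level was 9.52 in Foxl2 KO and 9.47 in DKO, against 11.8 in control and 11.6 in Runx1 KO. Where the probes lie relative to the altered parts of either gene was not examined, so these levels do not check the Runx1 deletion in DKO.

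Few genes separated the genotypes. With limma on all 18193 genes, 11 genes (0.0605%) had an adjusted p under 0.05, of which 7 were lower (0.0385%) and 4 higher (0.0220%) in DKO. The 7 that fell were Slc8a3, Ryr2, Ank, Prr5l, Ermp1, Slc23a2 and Gxylt2, and the 4 that rose were Nr5a1, Elovl6, Msx2 and Osr2. In all 11 the 4 DKO values lay wholly outside the 4 Foxl2 KO values, which held for 649 of all genes (3.57%). At an unadjusted p under 0.05 there were 978 genes (5.38%), 453 higher (2.49%) and 525 lower (2.89%), and 92 genes (0.506%) differed by more than 2-fold. The median difference over all genes was 0.00017. When the 8 compared arrays were fitted alone, 4 genes (0.0220%) were called, and all 4 were among the 11: Slc8a3, Ermp1, Osr2 and Elovl6. The labels give no litter or batch for the ovaries, so p-values measure the spread between these ovaries, and in whole ovaries fewer cells of a type and less RNA per cell cannot be told apart.

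**Figure D1:**
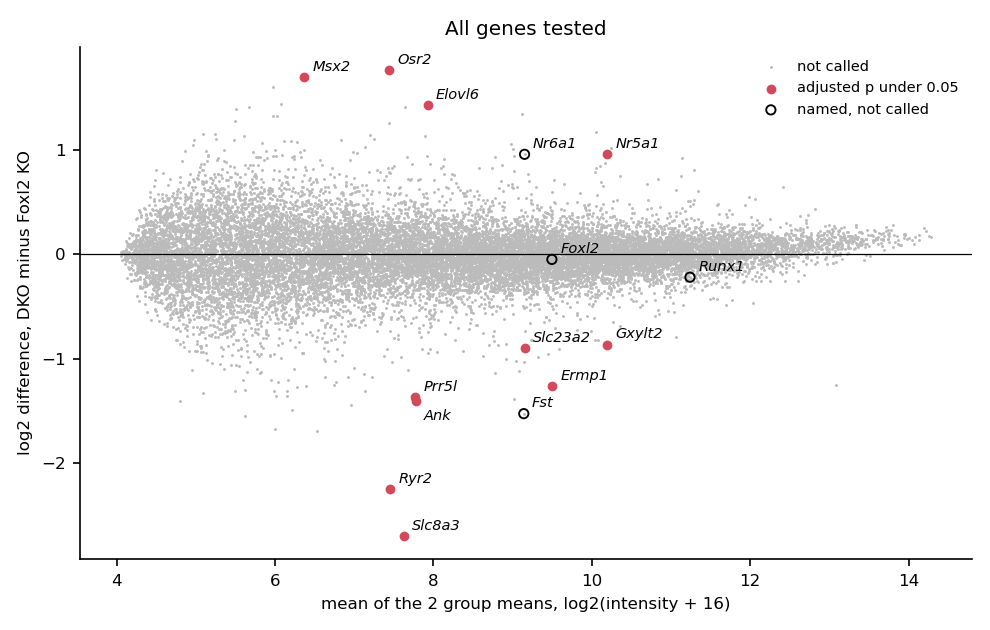
Log2 difference between DKO and Foxl2 KO ovaries (vertical axis) against the mean of both group means (horizontal axis, log2(intensity + 16)) for 18193 genes. Filled red points are the 11 genes with an adjusted p under 0.05, open circles are 4 genes named in the text that did not pass, and Slc8a3 and Ryr2 lie lowest of all at -2.69 and -2.25.

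The largest falls were in a pair of genes that move calcium. Slc8a3 encodes a sodium/calcium exchanger of the plasma membrane. Its intensities were 542, 341, 629 and 481 in the Foxl2 KO ovaries and 77.7, 39.4, 71.9 and 63.9 in the DKO ovaries. Every Foxl2 KO ovary was more than 4 times as bright as every DKO ovary, and the log2 difference was -2.69 ± 0.29 (6.47-fold lower; limma, adjusted p = 0.00121). Ryr2 encodes a ryanodine receptor, the channel that releases calcium from the endoplasmic reticulum. It read 529, 634, 290 and 181 in Foxl2 KO and 54.2, 45.6, 97.2 and 70.4 in DKO. The Foxl2 KO ovaries were spread widely, but the lowest still lay above the highest DKO ovary, and the difference was -2.25 ± 0.34 (4.75-fold lower; limma, adjusted p = 0.0215). Both Ryr2 probe sets fell when all probe sets were tested, and the second, dimmer Slc8a3 probe set was also lower (-0.86 ± 0.25, limma adjusted p = 0.534). The DKO means of Slc8a3 (6.28) and Ryr2 (6.33) lay within the range of the Y-linked genes, so both genes read close to background in the DKO ovaries.

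**Figure D2:**
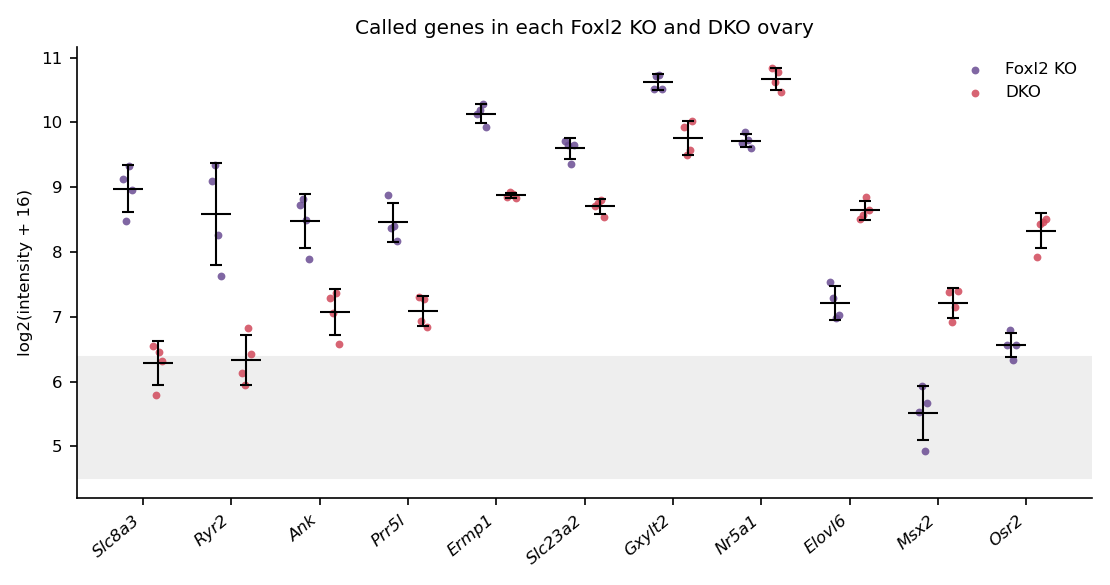
Level of the 11 called genes in each of the 4 Foxl2 KO ovaries (purple) and 4 DKO ovaries (red), as log2(intensity + 16). Points are single ovaries, black bars are the group mean with its SD, and the grey band spans the group means of 5 Y-linked genes (4.52 to 6.38); the groups do not overlap for any of these genes, and the DKO means of Slc8a3 and Ryr2 and the Foxl2 KO mean of Msx2 lie in the band.

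Calcium genes did not move in a shared direction. Of 23 measured genes of calcium handling, 2 fell, where 0.0385% of all genes did, none rose and 21 did not pass. Their median difference was 0.03. At an unadjusted p under 0.05, 2 were higher and 2 lower (17.4%, against 5.38% of all genes). Atp2b1, a plasma membrane pump that exports calcium, read 4180, 4170, 4561 and 4350 in Foxl2 KO and 5233, 5817, 4817 and 6114 in DKO (0.34 ± 0.11, limma adjusted p = 0.583). Itpr2, an IP3 receptor that also releases stored calcium, differed by 0.07 ± 0.19.

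The other 5 genes that fell had unlike functions. Ermp1, a metallopeptidase of the endoplasmic reticulum that was described in the rat for its part in assembling ovarian follicles, had nearly equal values in the 4 DKO ovaries. It read 1102, 1149, 1232 and 960 in Foxl2 KO and 444, 468, 461 and 440 in DKO, a difference of -1.26 ± 0.13 (2.39-fold lower; limma, adjusted p = 0.00121). All 3 Ermp1 probe sets were lower, and 2 were called when every probe set was tested.

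Prr5l, a partner of the mTORC2 kinase complex, had intensities of 456, 315, 322 and 272 in Foxl2 KO and of 141, 106, 140 and 98.9 in DKO (-1.36 ± 0.18; 2.58-fold lower; limma, adjusted p = 0.00757). Ank, a membrane protein through which cells export pyrophosphate, read 408, 434, 343 and 220 against 140, 118, 150 and 80.2 (-1.40 ± 0.23; 2.64-fold lower; limma, adjusted p = 0.0344). The dimmest Foxl2 KO ovary for Ank, replicate 4, was also the dimmest for Ryr2 and Prr5l. Slc23a2, a sodium-dependent transporter of vitamin C, read 827, 791, 642 and 790 against 401, 418, 431 and 358 (-0.89 ± 0.12; 1.86-fold lower; limma, adjusted p = 0.00757). Gxylt2, which adds xylose to the O-glucose sugars of epidermal growth factor repeats such as those of NOTCH receptors, had the smallest difference of the 7. It read 1446, 1657, 1690 and 1449 against 961, 709, 742 and 1024 (-0.86 ± 0.15; 1.82-fold lower; limma, adjusted p = 0.0456).

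Since RUNX proteins bind a short core sequence, the 250 bases before the start of each called gene were searched for TGTGGT and TGCGGT on both strands in the RefSeq promoter windows of GRCm38.p6. Windows were given for 9 of the 11 genes, and 2 of these, Gxylt2 and Prr5l, held a match. This was the case for 2961 of 14452 tested genes with a window (20.5%), and for 18.6% of all 32851 windows. Thus the called genes held the core at about the background rate in these windows, and no other motif was searched. Sequence outside the windows was not searched, and the study reported RUNX1 bound within an intron of Ryr2 in E14.5 ovaries. The windows with a match are shown 5′ to 3′ on the strand of the gene, with the core in capitals. The Gxylt2 window is chr6:100704484-100704733 on the plus strand, with TGTGGT beginning 178 bases before the start. The Prr5l window is chr2:101797708-101797957 on the minus strand, with the reverse complement ACCACA beginning 65 bases before the start, and it is 1 of 3 starts listed for this gene.
Gxylt2: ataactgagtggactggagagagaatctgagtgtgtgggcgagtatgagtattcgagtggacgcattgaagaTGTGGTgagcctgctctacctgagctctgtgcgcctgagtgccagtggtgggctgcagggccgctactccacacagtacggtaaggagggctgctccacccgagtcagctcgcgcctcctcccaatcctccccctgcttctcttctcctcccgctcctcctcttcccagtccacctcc
Prr5l: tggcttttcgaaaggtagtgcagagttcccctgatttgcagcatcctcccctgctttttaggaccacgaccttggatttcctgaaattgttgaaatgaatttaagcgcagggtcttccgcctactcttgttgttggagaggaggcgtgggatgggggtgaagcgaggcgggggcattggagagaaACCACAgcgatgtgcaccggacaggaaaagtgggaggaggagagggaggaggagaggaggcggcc

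Transcription factors and a lipid enzyme rose. Nr5a1 read 807, 903, 828 and 762 in Foxl2 KO and 1824, 1557, 1737 and 1396 in DKO. The groups were far apart relative to their spread, with a log2 difference of 0.96 ± 0.15 (1.95-fold higher; limma, adjusted p = 0.0215). The second Nr5a1 probe set was also higher (0.73 ± 0.29, limma adjusted p = 0.895). Because Sf1-Cre is built on Nr5a1 regulatory sequences and was present only in DKO, a rise of the endogenous gene and a contribution of the transgene cannot be told apart.

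A gene next to Nr5a1 gave a difference of the same size. Nr6a1, which encodes the orphan nuclear receptor GCNF and lies about 121 kb from Nr5a1 on chromosome 2 (between gene midpoints), read 407, 467, 336 and 369 in Foxl2 KO and 576, 885, 866 and 824 in DKO. All DKO ovaries lay above all Foxl2 KO ovaries, although the difference of 0.96 ± 0.20 did not pass (limma, adjusted p = 0.160). Of the 5 Nr6a1 probe sets 4 were higher, by 0.68 to 1.06, and the fifth, near background, differed by -0.07. Of 12 measured genes other than Nr5a1 within 1 Mb of Nr5a1 none was called, and Nr6a1 was the only one with an unadjusted p under 0.05. Nor was any gene called within 20 Mb of Runx1 (0 of 149 called, 13 or 8.72% at an unadjusted p under 0.05) or within 20 Mb of Foxl2 (0 of 321 called, 22 or 6.85% at an unadjusted p under 0.05), with limma over all genes, of which 5.38% had an unadjusted p under 0.05.

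Elovl6, an elongase of long-chain fatty acids, read 170, 141, 111 and 114 in Foxl2 KO and 347, 363, 446 and 384 in DKO. The difference was 1.43 ± 0.19 (2.69-fold higher; limma, adjusted p = 0.00757), while the other 2 probe sets of the gene gave 0.38 ± 0.17 and 0.31 ± 0.24 and did not pass. Msx2, a homeobox factor induced by BMP signalling, read 30.4, 45.0, 14.6 and 34.8 in Foxl2 KO and 151, 105, 127 and 152 in DKO (1.70 ± 0.23; 3.24-fold higher; limma, adjusted p = 0.00775). The Foxl2 KO mean of Msx2 (5.52) lay within the background range, and its second probe set, dim in all groups, differed by -0.26 ± 0.32. Osr2, an odd-skipped zinc finger factor of urogenital and craniofacial mesenchyme, read 78.4, 94.9, 64.7 and 79.0 in Foxl2 KO and 226, 328, 336 and 347 in DKO. DKO replicate 1 was the lowest of its group but still more than 2 times the highest Foxl2 KO ovary, and the difference was 1.76 ± 0.29 (3.40-fold higher; limma, adjusted p = 0.0388). The second Osr2 probe set was higher by 0.85 ± 0.31 (limma, adjusted p = 0.813). When the log2 values of all probe sets of a gene were averaged, these 4 differences stayed positive but were smaller, at 0.72 for Msx2, 0.71 for Elovl6, 0.85 for Nr5a1 and 1.31 for Osr2, and none of the 4 was called (limma, adjusted p = 0.613, 0.0797, 0.135 and 0.151).

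The levels in all 4 genotypes set the called genes apart from each other. In Slc8a3 the Foxl2 KO ovaries stood alone: the mean level (± SD, n = 4) was 6.19 ± 0.20 in control, 6.50 ± 0.72 in Runx1 KO, 8.97 ± 0.36 in Foxl2 KO and 6.28 ± 0.34 in DKO. The DKO and control means differed by less than the SD of either group. Prr5l was likewise highest in Foxl2 KO, at 7.52 ± 0.25, 7.22 ± 0.24, 8.46 ± 0.30 and 7.09 ± 0.23 in the same order. Elovl6 was lowest in Foxl2 KO, with 8.0 ± 0.30 in control, 8.13 ± 0.33 in Runx1 KO, 7.21 ± 0.26 in Foxl2 KO and 8.64 ± 0.15 in DKO. Ryr2 was instead high in both genotypes with intact Runx1 (9.20 ± 0.52 in control, 8.58 ± 0.79 in Foxl2 KO) and low in both without (6.61 ± 0.30 in Runx1 KO, 6.33 ± 0.38 in DKO). Nr5a1 was lowest in control (9.34 ± 0.20), followed by Foxl2 KO (9.71 ± 0.10), Runx1 KO (10.1 ± 0.27) and DKO (10.7 ± 0.17). These orders are descriptions, since the genes were chosen for their difference between the last pair of groups.

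**Figure D3:**
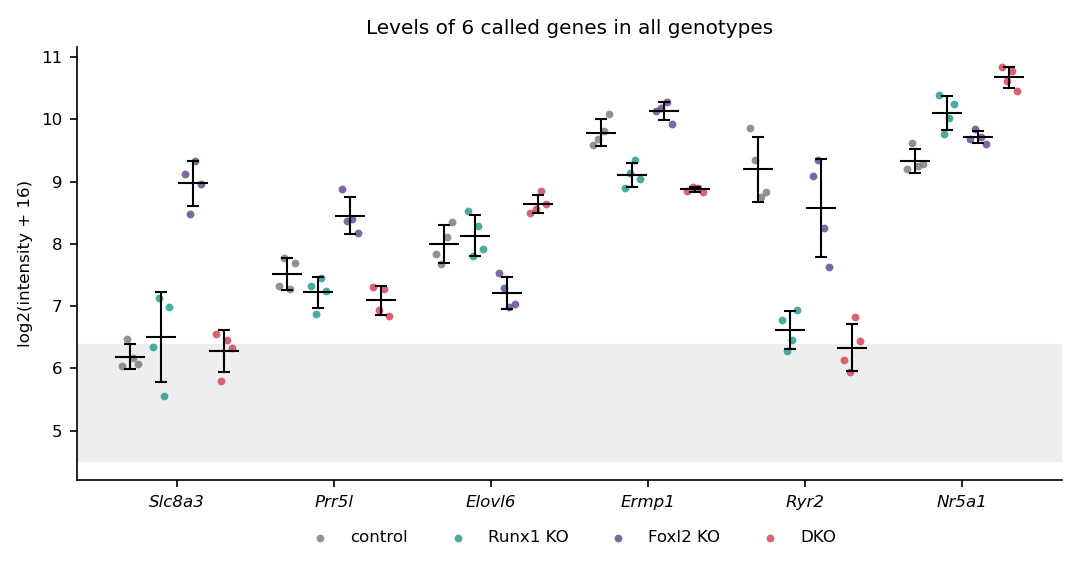
Level of 6 called genes in single ovaries of all 4 genotypes, as log2(intensity + 16), with the mean and SD of each group (n = 4) in black and the range of the Y-linked group means in grey. Slc8a3 and Prr5l are highest in Foxl2 KO, Elovl6 is lowest there, and Ryr2 is low in both genotypes that carry Sf1-Cre and lack Runx1.

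Runx1 KO against control is the same change of Runx1 and transgene with FOXL2 present, and it shares no array with DKO against Foxl2 KO. Of the 11 genes, 10 had the same sign there, all except Slc8a3, and the share with the same sign over all genes was 51.2%. In that comparison 5 of the 11 were called in the same direction, where 22 of all genes were called (0.121%): Ryr2 (-2.58 ± 0.34), Ank (-1.83 ± 0.23), Slc23a2 (-0.84 ± 0.12), Gxylt2 (-1.17 ± 0.15) and Msx2 (1.31 ± 0.23), with limma adjusted p of 0.00382, 0.00271, 0.00793, 0.00271 and 0.0438. The call of Msx2 there held in 6 of 26 alternative fits, with an adjusted p of up to 0.287. Ermp1 (-0.68 ± 0.13) and Nr5a1 (0.77 ± 0.15) both had an adjusted p of 0.0718 by limma, Osr2 differed by 0.93 ± 0.29 (adjusted p = 0.441) and Nr6a1 by 0.92 ± 0.20 (adjusted p = 0.163). Prr5l (-0.30 ± 0.18) and Elovl6 (0.14 ± 0.19) did not pass.

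Whether Runx1 loss acted differently without FOXL2 was tested with the interaction, which subtracts the difference between Runx1 KO and control from that between DKO and Foxl2 KO. Slc8a3 was the only one of the 11 genes that passed over all genes tested (-3.01 ± 0.42; limma, adjusted p = 0.0234), where 2 genes of 18193 did (0.0110%). However, its control (6.19) and Runx1 KO (6.50) means lay within or next to the background range (4.52 to 6.38). A fall with FOXL2 present therefore had less room to be seen, and how far this shaped the value was not tested. The value does not show that the effect of Runx1 loss depended on FOXL2. The Slc8a3 interaction ranged from -3.33 to -2.03 over 26 alternative fits and was called in 13 of them, with adjusted p from 0.00124 to 0.203. It was lost without control replicate 1 or 4, Foxl2 KO replicate 1, 3 or 4, Runx1 KO replicate 1 or 4, or DKO replicate 2, 3 or 4. The interaction was 1.29 ± 0.27 for Elovl6, -1.07 ± 0.26 for Prr5l and -0.57 ± 0.19 for Ermp1, with limma adjusted p of 0.296, 0.521 and 0.822. For the remaining genes, which had unadjusted interaction p-values over 0.05, a difference between the comparisons was not detectable with 4 ovaries a group.

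**Figure D4:**
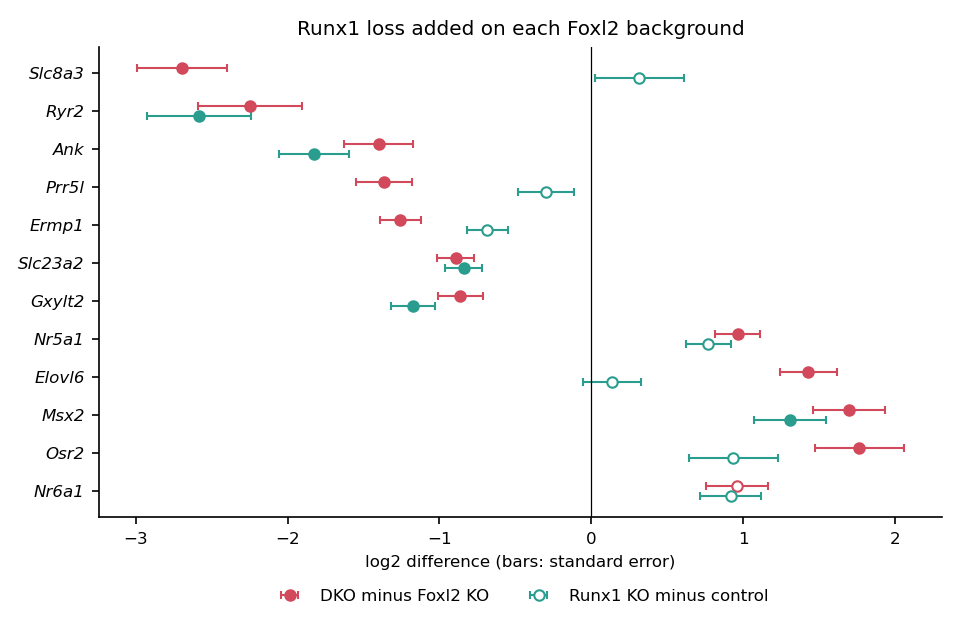
Log2 difference with its standard error for the 11 called genes and Nr6a1 in DKO minus Foxl2 KO (red) and Runx1 KO minus control (green). The comparisons share no array but use the same estimate of the spread. Filled points have an adjusted p under 0.05. Ryr2, Ank, Slc23a2, Gxylt2 and Msx2 are filled in both comparisons, and Slc8a3 is the gene with opposite signs.

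Of 22 measured genes of pre-granulosa cells, 1 fell (Ryr2), none rose and 21 did not pass, and 15 of the 22 differences were below 0 (68.2%, against 49.9% of all genes). Their median was -0.20, and the mean level of the list ran from 9.30 to 9.56 in single Foxl2 KO ovaries and from 9.14 to 9.25 in DKO ovaries. In the list, 7 members had an unadjusted p under 0.05, all lower, where 2.89% of all genes did. Fst, which encodes the activin antagonist follistatin, read 1415, 1059, 1444 and 359 in Foxl2 KO and 259, 366, 382 and 278 in DKO. The groups overlapped through Foxl2 KO replicate 4 alone, and the difference of -1.52 ± 0.34 did not pass (limma, adjusted p = 0.164). Without that ovary it was -1.98 ± 0.21 and passed (limma, adjusted p = 0.00181). Leaving out the ovary closest to the other group favours a call, so this fit gives the call no support. Wnt9a, a WNT ligand, read 661, 478, 617 and 458 in Foxl2 KO and 321, 237, 357 and 268 in DKO, with no overlap (-0.87 ± 0.23, limma adjusted p = 0.300). Foxp1, a forkhead factor, differed by -0.41 ± 0.11 and Axin2, a target and inhibitor of WNT signalling, by -0.59 ± 0.19, again without overlap (limma, adjusted p = 0.362 and 0.557). From control to Foxl2 KO to DKO the mean level fell for Fst (11.1, 9.90 and 8.38) and Foxp1 (11.3, 11.2 and 10.8). In the same order, Wnt9a (7.88, 9.14 and 8.27) and Axin2 (10.5, 11.1 and 10.5) were highest in Foxl2 KO, with DKO near or above control. Irx5, an Iroquois homeobox factor, had the highest difference of the list (0.71 ± 0.36). Cyp19a1, a member of this list, was not analysed here.

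Genes of Sertoli cells divided evenly between higher and lower means. Of 24 measured members 1 rose (Nr5a1), none fell, 12 differences lay above 0 and 12 below, and the median was 0.03. At an unadjusted p under 0.05, 3 were higher (Nr5a1, Clu and Aard) and 2 lower (Hsd17b3 and Sox10), which is 20.8%, against 5.38% of all genes. Clu, which encodes the secreted chaperone clusterin, read 4806, 4226, 3915 and 4498 in Foxl2 KO and 7538, 7133, 5308 and 7513 in DKO (0.64 ± 0.13, limma adjusted p = 0.153). Aard also stood higher without overlap (0.93 ± 0.21, limma adjusted p = 0.164). Mean levels in control, Foxl2 KO and DKO were 12.8, 12.1 and 12.7 for Clu and 11.5, 10.7 and 11.6 for Aard. Both were lowest in Foxl2 KO, with DKO close to control. Hsd17b3, which makes testosterone from androstenedione, differed by -1.11 ± 0.32 (limma, adjusted p = 0.432). Its mean level was 5.91 in control, 8.24 in Foxl2 KO and 7.13 in DKO. Dmrt1, a doublesex-related factor that maintains Sertoli cells and is also made by germ cells, read 133, 237, 115 and 161 in Foxl2 KO and 262, 224, 201 and 188 in DKO. The groups overlapped, and the difference of 0.44 ± 0.24 did not pass (limma, adjusted p = 0.984). Sox9, the testis-determining factor downstream of SRY, read 358, 363, 344 and 386 against 381, 299, 321 and 405, a difference of -0.05 ± 0.16 with a 95% interval from -0.40 to 0.29. Amh, the hormone that removes the Müllerian duct, was within the background range in both groups, with group means of 4.92 and 5.23.

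Over the 14 measured genes that the study had named from these samples, a choice that is not independent of them, 1 rose (Nr5a1), 1 fell (Ryr2) and 12 did not pass. The study named several of them from other comparisons. For DKO against Foxl2 KO at birth it reported Dmrt1 and Nr5a1 as higher, Fst and Ryr2 as lower, and no further rise of Sox9 and Amh. By immunofluorescence it saw DMRT1 protein in supporting cells of DKO gonads, and at birth in a few of those of Foxl2 KO. It called genes by analysis of variance at an unadjusted p under 0.05 and 1.5-fold on RMA values, and used quantitative PCR. The count at the adjusted threshold here is therefore not a repeat of its test. Of the members not yet described, Dhh, a hedgehog ligand of Sertoli cells, differed by 0.21 ± 0.22, Fgf9, a growth factor of the fetal testis, by 0.35 ± 0.17, Pdgfc, a platelet-derived growth factor, by 0.47 ± 0.26 and Pla2r1, a phospholipase A2 receptor, by 0.60 ± 0.40.

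**Figure D5:**
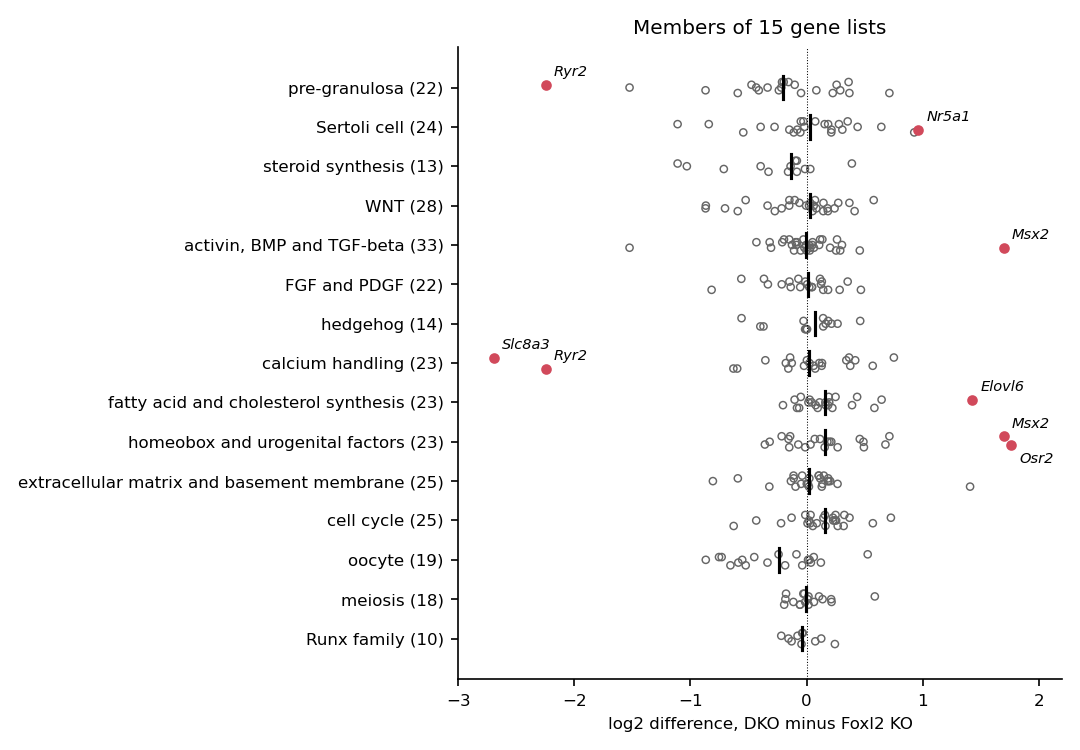
Log2 difference between DKO and Foxl2 KO ovaries for every measured member of 15 gene lists, with the number measured in parentheses. Open circles did not pass, red points have an adjusted p under 0.05 and are named, and black lines are list medians, of which oocyte (-0.24) and pre-granulosa (-0.20) lie lowest.

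Of the lists of growth factor, hedgehog and WNT signalling genes, only that of activin, BMP and TGF-beta held a call, where 1 of 33 rose (Msx2) and none fell, with a median of 0.00. None of 28 WNT genes was called (median 0.03), and 5 had an unadjusted p under 0.05, all lower, where 2.89% of all genes were, among them Lrp5, a WNT co-receptor (-0.70 ± 0.16, limma adjusted p = 0.165). None of 22 FGF and PDGF genes was called (median 0.01), and 1 had an unadjusted p under 0.05 (4.55%, against 5.38% of all genes). This was Fgf18, a growth factor (-0.82 ± 0.19, limma adjusted p = 0.179). Mean levels in control, Foxl2 KO and DKO were 8.13, 8.66 and 7.96 for Lrp5 and 8.64, 9.65 and 8.83 for Fgf18, highest in Foxl2 KO. None of 14 hedgehog genes was called by limma (median 0.07), and none had an unadjusted p under 0.05. Of the 10 measured genes of the Runx family and its partners none was called by limma or had an unadjusted p under 0.05. In that list Cbfb, the cofactor of RUNX proteins, differed by 0.13 ± 0.13.

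In the list of fatty acid and cholesterol synthesis 1 of 23 measured members rose (Elovl6), none fell and 22 did not pass. The median was 0.16, and 18 lay above 0 (78.3%, against 50.1% of all genes). Over the lists this share ran from 15.4% (steroid synthesis) to 80% (cell cycle), so such a lean was not particular to this list. Hmgcs1, an early enzyme of cholesterol synthesis, read 6358, 5245, 5888 and 7563 in Foxl2 KO and 10245, 8256, 6556 and 8984 in DKO (0.44 ± 0.15, limma adjusted p = 0.686). Scd1, a desaturase of fatty acids, differed by 0.65 ± 0.36. In steroid synthesis none of 13 measured genes was called (limma, median -0.14), 11 lay below 0 (84.6%, against 49.9% of all genes), and 3 had an unadjusted p under 0.05, all lower, where 2.89% of all genes were. Cyp11a1, which cleaves the side chain of cholesterol at the first step to steroids, read 129, 359, 258 and 270 in Foxl2 KO and 148, 110, 83.4 and 103 in DKO (-1.03 ± 0.25, limma adjusted p = 0.221). The groups overlapped through Foxl2 KO replicate 1.

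Among homeobox and urogenital factors 2 of 23 rose (Msx2 and Osr2), where 0.0220% of all genes did, none fell, and the median was 0.16. These 2 were also the only members with an unadjusted p under 0.05 (8.7%, against 5.38% of all genes). None of 25 matrix and basement membrane genes was called (limma, median 0.02) and 3 had an unadjusted p under 0.05 (12%, against 5.38% of all genes), with the smallest for Bcan, a chondroitin sulfate proteoglycan (1.41 ± 0.32, adjusted p = 0.165). Bcan read 58.5, 102, 78.4 and 254 in Foxl2 KO and 446, 326, 216 and 287 in DKO. Without Foxl2 KO replicate 4 it passed (1.79 ± 0.24; limma, adjusted p = 0.00684), but that ovary was the closest to DKO, so leaving it out favours a call. None of 25 cell cycle genes was called (limma, median 0.16), and 4 had an unadjusted p under 0.05 (16%, against 5.38% of all genes). In that list the cyclin-dependent kinase inhibitors Cdkn2b (-0.63 ± 0.14, limma adjusted p = 0.166) and Cdkn1c (0.73 ± 0.23, limma adjusted p = 0.526) had the smallest p-values and opposite signs.

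Markers of other cell types gave no calls with limma. Of 19 measured oocyte genes none was called and none had an unadjusted p under 0.05, yet their median was -0.24 and 13 lay below 0 (68.4%, against 49.9% of all genes). The mean level of the oocyte list ran from 9.75 to 10.9 in single Foxl2 KO ovaries and from 9.86 to 10.3 in DKO ovaries. Gdf9, a growth factor of oocytes, showed the spread within Foxl2 KO, at 676, 256, 200 and 930, against 181, 325, 316 and 264 in DKO (-0.66 ± 0.52). None of the 18 meiosis, 13 endothelial, 14 macrophage and myeloid, 7 erythroid, 15 stromal, 14 surface epithelial, 13 mesonephric, 8 adrenal cortex and 8 fetal Leydig genes measured was called. In all 5 had an unadjusted p under 0.05, 1 each in the erythroid, stromal, surface epithelial, mesonephric and fetal Leydig lists. The share per list ran from 0% to 14.3% (erythroid), against 5.38% of all genes. The medians of these lists lay between -0.12 (stroma) and 0.12 (mesonephric duct and tubule). The mean level of the mesonephric list ran from 7.38 to 7.57 in Foxl2 KO and from 7.44 to 7.93 in DKO, and its part in the higher Osr2 and Msx2 levels was not tested.

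Of the 11 calls, 6 were kept in each of the 16 fits that left out 1 array: Slc8a3, Prr5l, Ermp1, Slc23a2, Elovl6 and Msx2. Ryr2 was lost without Foxl2 KO replicate 1 or DKO replicate 1, 2 or 4 (limma, adjusted p up to 0.104). Nr5a1 was lost without Foxl2 KO replicate 1, 3 or 4 or DKO replicate 1, 2 or 3 (adjusted p up to 0.104). Ank was called in 6 of these fits, those without control replicate 3, Foxl2 KO replicate 4 or any 1 of the 4 Runx1 KO ovaries (adjusted p up to 0.142). Osr2 was called in 5, those without control replicate 1 or 3 or Runx1 KO replicate 1, 3 or 4 (adjusted p up to 0.149), and Gxylt2 in 2, those without Runx1 KO replicate 2 or DKO replicate 4 (adjusted p up to 0.158). In all of these fits the direction of each gene was kept, and leaving out 1 of the 8 compared arrays moved the difference of Ryr2, the widest, between -2.57 and -1.99.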

How the data were processed

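Single P0 ovaries, 4 per genotype, were measured on Affymetrix Mouse Genome expression arrays after RNA amplification. The deposited intensity values, 1 per probe set, are linear. The authors summarised them with Affymetrix Expression Console 1.2, and after trimming 2% at each end every array has the same mean. The summarisation algorithm is not given in the sources used here. Here 16 was added to each intensity before log2 was taken. Of 45101 probe sets, 34945 named 1 gene, 932 named several and 9160 named none, and 64 were controls. The probe set with the highest mean over the 16 arrays stood for a gene, which gave 18193 genes, 9009 of them with several probe sets. Each of the 16 value columns matched a sample, and 0 columns went unmatched.

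In limma 3.58.1 (lmFit, eBayes; R 4.3.3), 1 linear model of the 16 arrays gave a mean for each of the 4 genotypes, as the methods' one-way analysis of variance also shares the spread (12 residual and 3.32 prior degrees of freedom). Tests were two-sided with Benjamini-Hochberg adjustment over all genes, and an adjusted p under 0.05 made a call. Standard errors are limma's moderated ones. The number of arrays limits the precision, with a median standard error of 0.203.

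The comparison, the gene lists and the rule for named genes (Runx1 and Foxl2, up to 15 called genes in each direction without overlap, up to 4 members per list by p, genes the study named, called neighbours) were chosen with earlier results of these data known. Genes were named from GEO's platform annotation, and gene spacing and promoter windows come from RefSeq. The alternatives were the 8 arrays alone, offsets of 1 and 50, scaling to equal medians or by quantiles, averaging a gene's probe sets, the probe set brightest over the 8 arrays, leaving out genes under the median level, array weights, a prior that was trended and robust, a replicate block, the methods' test (which the study ran on RMA log2 values, and which was run here on the log2 values above), a 1.5-fold minimum and each array left out. Every probe set on its own, and all settings for Runx1 KO against control and the interaction, were chosen after seeing the data.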

Additional observations from a re-analysis of the deposited data

Results flagged for a closer look

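In 82 groups of 4 ovaries examined for the genes named, 6 had a single ovary far from the other 3 by Dixon's criterion, in which the ovary's distance from its nearest neighbour is divided by the whole range on the log2 scale. Chance gives about 1 in 20. Osr2 in DKO replicate 1 read 226 against 328 to 347 in the other DKO ovaries (ratio 0.868). Nr6a1 in the same ovary read 576 against 824 to 885 (ratio 0.833). Clu in DKO replicate 3 read 5308 against 7133 to 7538 (ratio 0.842). Cbfb in DKO replicate 4 read 2525 against 3246 to 3364 (ratio 0.875). Hsd17b3 in Foxl2 KO replicate 4 read 563 against 216 to 236 (ratio 0.910), and this ovary was also the low one for Fst and the high one for Bcan. Lrp5 in Foxl2 KO replicate 3 read 298 against 419 to 436 (ratio 0.893). Separately, the DKO minus Foxl2 KO difference of Slc8a3 departed from its Runx1 KO minus control difference by -3.01 ± 0.42 (limma, adjusted p = 0.0234). The control and Runx1 KO means, 6.19 and 6.50, lay within or next to the background range of up to 6.38. This left less room for a fall with FOXL2 present, and a dependence on the Foxl2 genotype is not shown by this value.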

How the results depend on the processing

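The count of 11 called genes (4 higher, 7 lower) was 4 (2 and 2) with the 8 arrays alone, 5 (1 and 4) among genes above the median level, 18 (5 and 13) with array weights and 7 (3 and 4) with the methods' test after adjustment. With the mean of all probe sets 8 were called, 1 of them higher. At the methods' unadjusted p under 0.05 and 1.5-fold there were 402 genes, 169 higher and 233 lower, on the deposited intensities used here and not on the RMA values to which the study applied that test. Leaving out 1 array gave 6 to 16 calls, 2 to 8 higher and 4 to 10 lower. The count was 6 without Foxl2 KO replicate 1 and 7 without replicate 3. With the replicate number as a block 7 were called, 2 higher, but the numbers only share a label, as same-numbered arrays had residual correlations of -0.079 to -0.018. The 8-array fit gave limma adjusted p of 0.0606 for Prr5l, Nr5a1 and Msx2, 0.0962 for Slc23a2, 0.112 for Ryr2, 0.147 for Ank and 0.172 for Gxylt2, and the other scalings (9 calls with equal medians, 10 with quantiles) kept every direction of the 11. An offset of 1 lost Ank, Gxylt2 and Osr2 (limma, adjusted p = 0.0650, 0.0673 and 0.0849). Each probe set tested on its own gave 14 calls of 45037, in 11 genes, 8 of them among the 11. Small differences that had not passed changed sign: Foxl2 was 0.10 with the mean of all probe sets and ran from -0.23 to 0.053 when 1 array was left out, Sox9 then ran from -0.12 to 0.018, and with the mean of all probe sets Dhh was -0.19 and Itpr2 -0.080. The cause of these changes was not tested. Levels near background bound what the arrays show. The folds of Slc8a3, Ryr2 and Msx2 may be understated, as their dimmer group read close to background and 16 was added to each intensity. Per array, 11.2% to 15.6% of all probe sets lay below an intensity of 16.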
